A study of Mus musculus with 17 samples.

Results

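The genes described are those for the protein subunits of the mitochondrial ribosome whose symbols begin with Mrpl or Mrps, for mitochondrial ribosomal protein of the large or small subunit, in the hippocampus of control and epileptic mice. Of 75 such symbols in the count files, 73 genes had at least 10 reads in each of the 17 libraries and were kept, among 17615 genes tested. Mrpl53 had 0 reads in every library and Mrps18b had between 3 and 167, so neither was included. Mrpl33 was not analysed here. The members were chosen by name and depth, not by how they changed, though earlier results of these data were known.

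RNA-seq of polyadenylated RNA was done on hippocampi of adult mice. Mice without induced epilepsy received sgLacZ (control sgLacZ, n = 5). Mice made epileptic received sgLacZ (epileptic sgLacZ, n = 6) or sgKcna1 (epileptic sgKcna1, n = 6). Epilepsy was induced by kainic acid injected into the amygdala, after which status epilepticus and, later, recurrent seizures develop. All groups received adeno-associated viruses with a nuclease-dead Cas9 joined to an activator, switched on by doxycycline in the food and biased to excitatory neurons by a Camk2a promoter. The guide sgKcna1 targets the promoter of the potassium channel gene Kcna1, and sgLacZ targets a bacterial gene. The transduced cells are a part of the tissue, all hippocampal cells contributed RNA, and no group of control mice with sgKcna1 was analysed here.

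Mitochondria keep a small genome that encodes core subunits of the respiratory chain, and a ribosome of their own translates these messages inside the organelle. Its RNA comes from mitochondrial DNA, but every one of its proteins is encoded in the nucleus, made in the cytosol and imported. Some of these proteins have counterparts in the bacterial ribosome, and others were gained in the mitochondrial lineage. Neurons rely on oxidative phosphorylation, so the supply of these subunits is of interest in tissue with repeated seizures.

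Many nuclear genes for mitochondrial proteins carry sites for the factors NRF1 and GABP, the latter of the ETS family, near their start. The 250 bases before the start site used in the RefSeq promoter table (assembly GRCm38.p6) are shown for 3 members that were lower in epileptic mice and hold an ETS motif there, and for Mrpl10, the member that was higher. Capitals mark the ETS motif CCGGAAG or the NRF1 motif GCGCANGCG, on either strand. The sequences lie at chr17:12916092-12916341 (minus strand), chr11:94653541-94653790 (plus), chr6:125191950-125192199 (plus) and chr11:97041332-97041581 (plus), respectively. The start site used lies 1696 bases inside the outer start of the annotated gene in Mrpl18 and 21 bases inside in Mrpl27, and at the outer start in Mrpl51 and Mrpl10.
Mrpl18: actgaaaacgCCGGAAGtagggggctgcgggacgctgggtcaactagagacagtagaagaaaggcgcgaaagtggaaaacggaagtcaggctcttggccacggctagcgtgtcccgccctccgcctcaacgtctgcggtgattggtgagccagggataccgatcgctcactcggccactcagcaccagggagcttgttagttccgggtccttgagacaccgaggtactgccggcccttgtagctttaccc
Mrpl27: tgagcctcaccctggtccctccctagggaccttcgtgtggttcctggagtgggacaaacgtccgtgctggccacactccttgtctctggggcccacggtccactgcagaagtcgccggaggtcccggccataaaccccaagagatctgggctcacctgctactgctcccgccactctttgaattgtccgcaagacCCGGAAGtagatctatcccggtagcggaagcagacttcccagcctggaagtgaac
Mrpl51: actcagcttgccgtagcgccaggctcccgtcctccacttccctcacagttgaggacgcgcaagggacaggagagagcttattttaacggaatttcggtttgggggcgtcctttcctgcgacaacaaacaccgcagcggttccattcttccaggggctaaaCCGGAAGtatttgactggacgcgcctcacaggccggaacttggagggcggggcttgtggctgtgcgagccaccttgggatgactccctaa
Mrpl10: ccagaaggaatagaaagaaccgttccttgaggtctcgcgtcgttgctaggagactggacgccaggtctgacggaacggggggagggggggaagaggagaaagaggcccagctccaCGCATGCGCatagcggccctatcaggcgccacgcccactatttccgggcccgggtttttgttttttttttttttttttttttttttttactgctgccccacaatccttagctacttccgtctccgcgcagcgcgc
Counted from that start site, the first base of the motif was at -240 in Mrpl18, -55 in Mrpl27, -90 in Mrpl51 and -135 in Mrpl10.

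A promoter window of 300 bases, from 250 before to 50 after the start, was found for 64 of the 73 members. In 44 of them the start was the outer start of the annotated gene, and in 20 it was another one. Among the members, 20 windows (31.2%) held the ETS motif and 14 (21.9%) the NRF1 motif, against 9.12% and 6.47% of 27025 promoters of all genes. The motif AAGATGGCG of YY1 was in 8 member windows (12.5%) and in 1.49% of all promoters. The SP1 motif GGGCGG was in 32 windows (50%) and in 35.9% of all promoters, whereas TATAAA was in 4 (6.25%) and in 14.2%. TGACGTCA, the cyclic AMP response element, was in 2 windows (3.12%, against 1.88%) and the E-box CACGTG in 5 (7.81%, against 7.24%). Both strands were searched, and these shares are a description of letters, not of binding. Of the 9 windows of members lower in epileptic sgLacZ mice, 4 held the ETS motif and 0 the NRF1 motif. In Mrps33, the remaining one with an ETS motif, the motif lay 39 bases after the start. Mrpl46 and Mrps11, a large and a small subunit gene, face away from each other on chromosome 7 with 41 bases between them.

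Levels differed widely among the members. Per kilobase of transcript, the highest were Mrps21 at 167 ± 56.4 CPM per kilobase (SD over 17 libraries), Mrpl52 at 139 ± 63.8, Mrpl41 at 122 ± 32.8 and Mrpl11 at 108 ± 28.8. CPM are reads scaled to a common library size (TMM), here divided by the length of the longest annotated coding transcript. Each of these 4 differed from its neighbour in the order by less than 1 SD. The lowest were Mrpl1 at 6.32 ± 1.05 CPM per kilobase, Mrps25 at 6.41 ± 0.865, Mrpl47 at 7.07 ± 1.70 and Mrpl35 at 8.38 ± 1.11, and neighbours among them differed by less than the larger of their SDs. These 4 genes have transcripts of 3364 to 6073 bases, against 412 to 821 for the highest 4, so their place rests in part on the transcript length used. Reads shared with an overlapping gene are also left out of these counts. Strand counts, where such reads are kept, added to 3.02 times the unstranded count in Mrps25 and 3.33 times in Mrpl47. The factor was 1 in Mrpl1, 1.001 in Mrpl35 and 1 to 1.005 in the highest 4. The member with the fewest reads was Mrps34, with 29 in its lowest library, where a count of 3 reads, the floor of detection, was 0.106 to 0.253 CPM. Its strand counts added to 3.76 times the unstranded count.

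**Figure D1:**
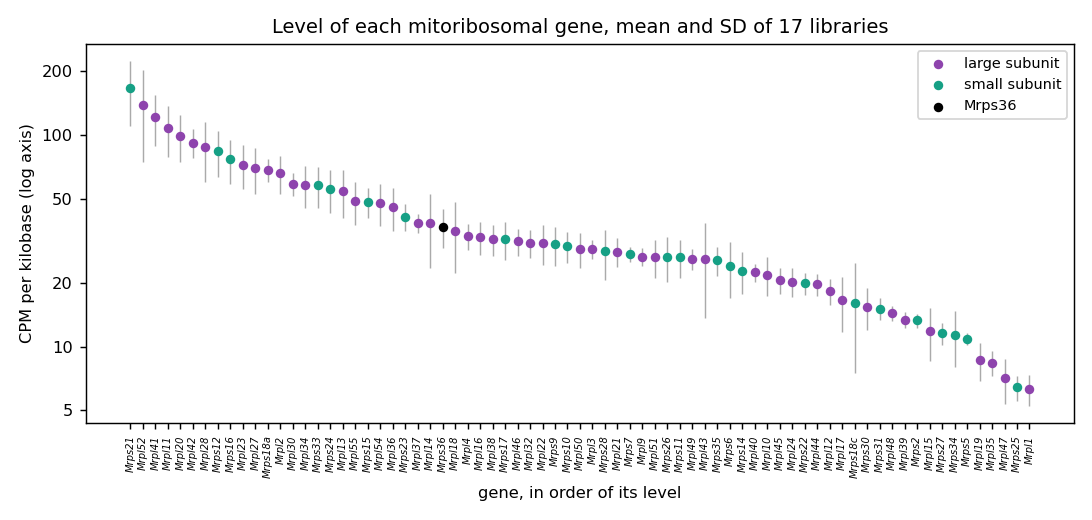
Level of each of the 73 genes in CPM per kilobase on a log axis, as the mean (points) and SD (grey bars) of 17 libraries, in order of the mean. Levels ran from 167 for Mrps21 to 6.32 for Mrpl1, with both subunits spread along the order.

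Reads in genes numbered 11839240 to 28311328 a library. The share of unmapped reads was 11.0% to 24.1% in epileptic sgLacZ, 19.1% to 41.5% in epileptic sgKcna1 and 19.5% to 27.7% in control libraries. Epileptic sgKcna1 replicate 12 stood apart, with the fewest reads in genes, the largest unmapped share and 133 CPM of the targeted gene Kcna1. The other epileptic sgKcna1 libraries had 13.9 to 29.5 CPM of Kcna1, epileptic sgLacZ libraries 16.9 to 56.7 and control libraries 25.5 to 44.03, so Kcna1 gave no check of the guide label (log2 fold change between the epileptic groups 0.32, SE 0.47, edgeR adjusted P = 0.706). Markers of hippocampal neurons and glia were present, and of the 38 markers examined 0 were at 0 reads in all libraries. Astrocyte markers summed to 931 to 1011 CPM in control and 1025 to 1472 in epileptic sgLacZ libraries (2 of 5 higher), oligodendrocyte markers to 6132 to 8835 and 4569.8 to 6776 (0 of 5 called), and neuronal markers to 7191 to 7717 and 6708 to 8889.8 (1 of 7 higher). Of the other lists, 1 of 5 microglial markers was higher, 1 of 6 hippocampal region markers was higher and 1 lower, and 0 of 5 endothelial and 0 of 5 choroid plexus markers were called. Between epileptic sgLacZ and control mice 7.26% of all genes tested were higher and 3.76% lower (edgeR, adjusted P under 0.05). Choroid plexus sums varied widely between libraries, from 1198 to 12512 CPM in control, 4396 to 11438 in epileptic sgLacZ and 291 to 7818 in epileptic sgKcna1 libraries. In epileptic sgKcna1 libraries oligodendrocyte markers summed to 2542 to 10040 CPM, astrocyte markers to 983 to 1318 and neuronal markers to 6896 to 8289. The part of cell composition in the results was not tested, and in whole tissue fewer cells of a type and less RNA per cell cannot be told apart.

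The first comparison asked which members differed between epileptic and control mice that had both received sgLacZ. In epileptic mice 10 members of both subunits were lower and 1, Mrpl10, was higher. The lower ones, Mrpl18, Mrpl47, Mrpl15, Mrps30, Mrpl27, Mrps33, Mrps17, Mrpl51, Mrpl16 and Mrpl50, fell by 0.45 to 0.94 on the log2 scale. Those past the threshold were 11 of 73 members (15.1%), against 11.0% of all genes tested (edgeR quasi-likelihood test, Benjamini-Hochberg adjusted over all 17615 genes, threshold 0.05). By direction, 10 members (13.7%) were lower against 3.76% of all genes, and 1 member (1.37%) was higher against 7.26%. The adjusted P-values of these 11 lay between 0.0330 and 0.0499. Without adjustment, 46 members had P under 0.05 in the lower and 2 in the higher direction, against 15.9% and 18.8% of all genes.

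The whole set leaned the same way. The median log2 fold change of the 73 members was -0.37, against 0.02 over all genes tested, with 65 members below 0, against 48% of all genes, and 8 above 0, against 52%. Large subunit members had a median of -0.37 (9 of 47 called, 8 lower) and small subunit members of -0.39 (2 of 25 called, both lower). Of all genes, 11.0% were called and 3.76% were lower. Mrps36, which despite its name is a component of a dehydrogenase complex and not of the ribosome, had -0.22. Members with a bacterial counterpart had medians of -0.44 in the large subunit (29 genes) and -0.47 in the small (16 genes), and members particular to mitochondria of -0.26 (18 genes) and -0.23 (9 genes). Members of different classes were not compared by a test. The lowest estimate was that of Mrps18c, a small subunit gene named after its values were seen, at -1.03 (SE 0.34), with an adjusted P of 0.0547 by edgeR.

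**Figure D2:**
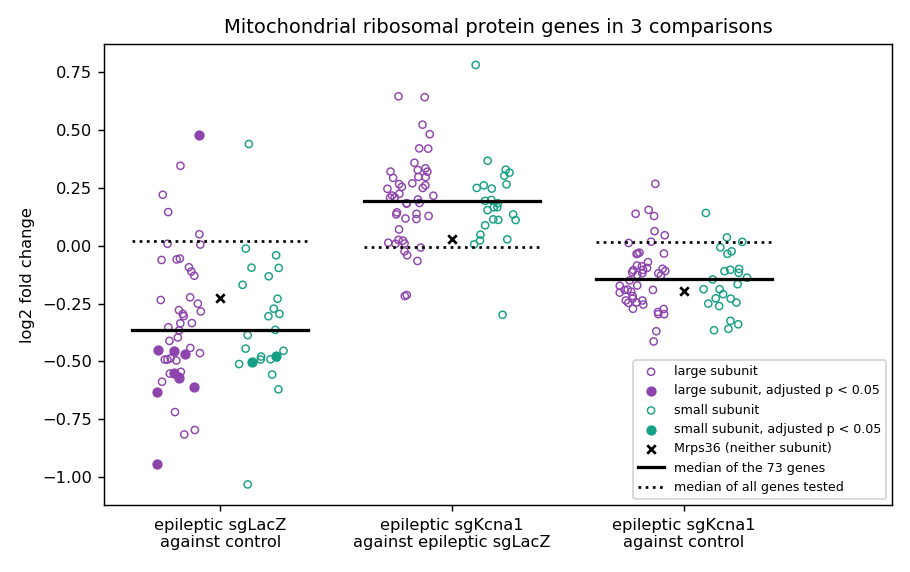
Log2 fold change of each of the 73 genes (vertical axis) in the 3 comparisons, for large subunit (purple) and small subunit (green) genes and Mrps36 (cross); filled points passed the adjusted threshold, and lines give the medians of the 73 genes (solid) and of all 17615 genes tested (dotted). The median was -0.37 in epileptic sgLacZ against control, 0.19 in epileptic sgKcna1 against epileptic sgLacZ and -0.15 in epileptic sgKcna1 against control.

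Mrpl18 (ENSMUSG00000057388, chr17:12911345-12917787 in GRCm38.p6) encodes the counterpart of a bacterial large subunit protein that binds ribosomal RNA. Control libraries had 62.4, 63.5, 48.9, 51.4 and 54.2 CPM, and epileptic sgLacZ libraries ran from 19.1 through a median of 25.8 to 51.7. Epileptic sgKcna1 libraries ran from 35.8 through 40.4 to 73.8. Of the epileptic sgLacZ libraries only replicate 5, at 51.7 CPM, reached the control range. The log2 fold change was -0.94 (SE 0.23, edgeR adjusted P = 0.0330), the largest fall among the called members. The gene overlaps Tcp1, and reads shared with an overlapping gene are left out of unstranded counts. Adding the counts of both strands gives such reads to both genes, so here and below the sum can hold reads of the neighbour. When the counts of both strands were added, the log2 fold change was -0.65 (adjusted P = 0.0262).

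Mrpl47 (ENSMUSG00000037531, chr3:32727497-32736755), the mitochondrial counterpart of a protein near the exit of the bacterial peptide tunnel, had 33.9, 34.4, 26.3, 26.4 and 30.1 CPM in control libraries and 12.9, 19.5 and 25.8 as the lowest, median and highest in epileptic sgLacZ libraries. These groups did not overlap. The log2 fold change was -0.63 (SE 0.15, edgeR adjusted P = 0.0330). Its strand counts added to 3.33 times the unstranded count, and with both strands added the fall was -0.42 (adjusted P = 0.0548). Mrps30 (ENSMUSG00000021731, chr13:118380110-118387252) is named for the small subunit but sits in the large one. It had 32.2, 33.6, 28.0, 29.7 and 28.8 CPM in control libraries and 14.6, 18.9 and 27.7 as the lowest, median and highest in epileptic sgLacZ libraries, again without overlap. The log2 fold change was -0.57 (SE 0.15, edgeR adjusted P = 0.0355), and -0.15 with both strands added (adjusted P = 0.269).

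Mrps33 (ENSMUSG00000029918, chr6:39801804-39810936), a small subunit protein found only in mitochondria, shared no reads with a gene on the other strand. Control libraries had 84.3, 80.5, 74.0, 79.3 and 74.8 CPM and epileptic sgLacZ libraries ran from 36.1 through 55.6 to 72.3. The groups did not overlap, and the log2 fold change was -0.50 (SE 0.16, edgeR adjusted P = 0.0489). Thus 3 members (4.11%) were lower without overlap and 0 higher, against 2.4% and 2% of all genes.

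Mrpl15 (ENSMUSG00000033845, chr1:4773198-4785750), Mrpl16 (ENSMUSG00000024683, chr19:11770415-11774956) and Mrps17 (ENSMUSG00000034211, chr5:129715450-129718712) are counterparts of bacterial ribosomal proteins. Mrpl15 had 74.5, 64.5, 50.6, 54.8 and 61.0 CPM in control libraries and 27.3, 37.1 and 59.4 as the lowest, median and highest in epileptic sgLacZ libraries. Mrpl16 had 47.6, 41.1, 38.3, 43.0 and 39.9 CPM in control libraries and 23.1, 30.5 and 39.4 in epileptic sgLacZ libraries. Mrps17 had 92.2, 84.0, 74.9, 75.4 and 74.0 CPM in control libraries and 43.5, 54.3 and 78.0 in epileptic sgLacZ libraries. In all 3 genes the groups overlapped through the epileptic sgLacZ replicate 5 alone. The log2 fold changes were -0.61 (SE 0.19, edgeR adjusted P = 0.0479), -0.45 (SE 0.12, adjusted P = 0.0347) and -0.48 (SE 0.13, adjusted P = 0.0398).

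Mrpl27 (ENSMUSG00000024414, chr11:94653770-94661932) is the counterpart of a bacterial protein that reaches towards the peptidyl transferase centre. It had 76.6, 67.6, 53.8, 61.6 and 60.7 CPM in control libraries and 27.8, 40.5 and 69.8 as the lowest, median and highest in epileptic sgLacZ libraries. Its log2 fold change was -0.55 (SE 0.18, edgeR adjusted P = 0.0499). It overlaps Eme1, and with both strands added the value was -0.34 (adjusted P = 0.0929). Mrpl50 (ENSMUSG00000044018, chr4:49512597-49521083) and Mrpl51 (ENSMUSG00000030335, chr6:125192200-125194392) are large subunit proteins without a bacterial counterpart. Mrpl50 had 73.9, 82.4, 69.2, 61.7 and 61.5 CPM in control libraries and 39.6, 49.9 and 64.1 in epileptic sgLacZ libraries (log2 fold change -0.45, SE 0.12, adjusted P = 0.0366). Mrpl51 had 93.3, 82.3, 75.1, 89.0 and 85.5 CPM in control libraries and 41.4, 57.9 and 89.4 in epileptic sgLacZ libraries (log2 fold change -0.47, SE 0.15, adjusted P = 0.0489). In each of the 3 genes the groups overlapped, with epileptic sgLacZ replicate 5 inside the control range.

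Mrpl10 (ENSMUSG00000001445, chr11:97041582-97049213), the counterpart of the protein that anchors the factor-binding stalk of the large subunit, was the member that rose. It had 32.3, 30.5, 30.7, 29.1 and 31.2 CPM in control libraries and 31.5, 43.8 and 51.6 as the lowest, median and highest in epileptic sgLacZ libraries. All but replicate 5 lay above every control library. The log2 fold change was 0.48 (SE 0.15, edgeR adjusted P = 0.0464). Its strand counts added to 2.13 times the unstranded count, and the direction turned to -0.21 (adjusted P = 0.166) when both strands were added. Mrpl12, which forms the stalk with it, had a log2 fold change of 0.05, and -0.39 with both strands added (adjusted P = 0.0590). The other members above 0 were Mrps34 (0.44, and -0.24 with both strands added), Mrpl38 (0.35, adjusted P = 0.0718), Mrpl4 (0.22), Mrpl39 (0.15), Mrpl3 and Mrpl40 (both 0.01), and none of these passed the threshold.

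**Figure D3:**
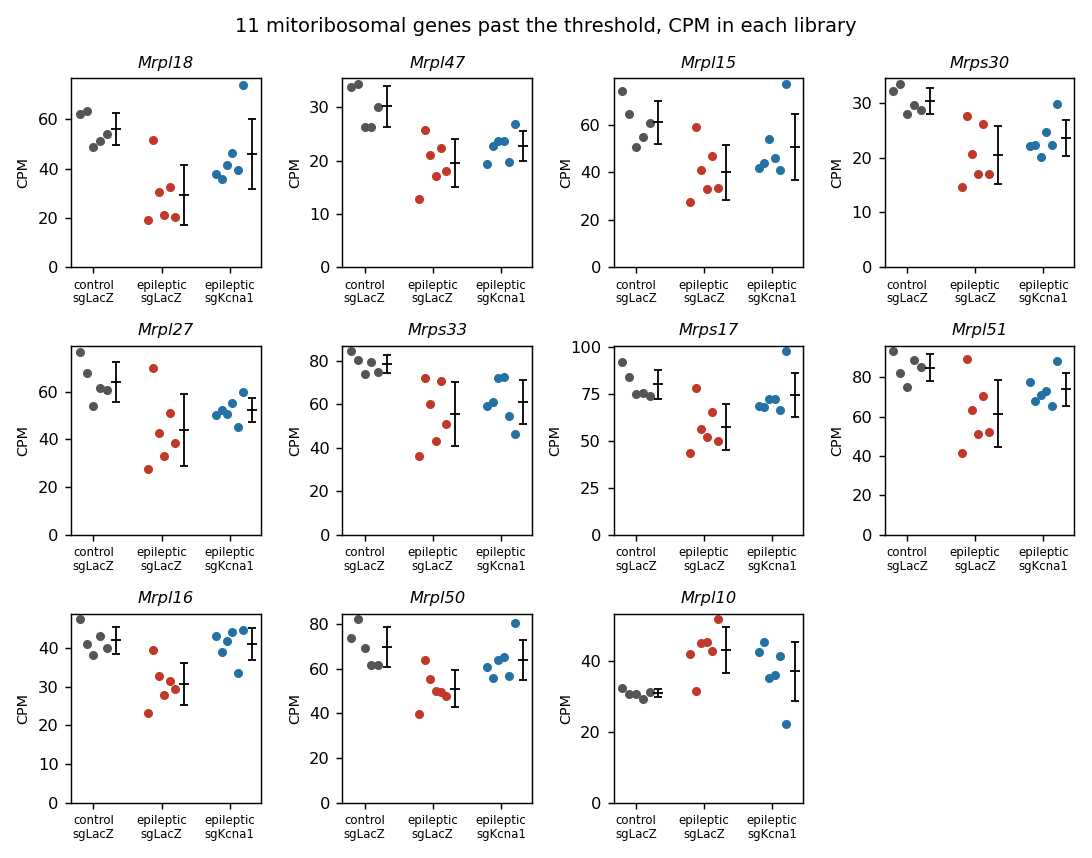
CPM in each library (points) for the 11 genes past the threshold between epileptic sgLacZ and control mice, with the mean and SD of each group (black), n = 5, 6 and 6. Epileptic sgLacZ libraries were lower in 10 genes and higher in Mrpl10, and the groups did not overlap in Mrpl47, Mrps30 and Mrps33.

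Overlap with other genes touched 19 of the 73 members, those whose strand counts added to a sum over 5% above the unstranded count. The other 54 members had a median log2 fold change of -0.39, with 6 called (11.1%), all lower. The 19 had a median of -0.13, with 5 called (26.3%), 4 of them lower. Of all genes, 11.0% were called and 3.76% were lower.

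The fall was uneven across the epileptic sgLacZ libraries. The summed CPM of the 73 genes was 4185, 3958, 3476, 3704 and 3654.5 in the 5 control libraries, a mean of 3795 ± 278 (SD, n = 5). It ran from 2165 through a median of 2879 to 4014 in epileptic sgLacZ libraries, a mean of 2968 ± 665 (SD, n = 6), and from 3039 through 3363 to 3972 in epileptic sgKcna1 libraries, a mean of 3416 ± 311 (SD, n = 6). The groups overlapped, since epileptic sgLacZ replicate 5 lay at 4014, above 4 of the 5 control libraries. Measured against each gene's control mean on the log2 CPM scale, the median member was at -0.81, -0.61 and -0.51 in epileptic sgLacZ replicates 4, 7 and 9. It was at -0.33, -0.16 and 0.08 in replicates 6, 8 and 5.

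Those values moved with a technical measure and with transcript length. Replicates 4, 7 and 9 had the smallest unmapped shares of all 17 libraries, 11.0%, 15.8% and 17.2%, while replicates 5 and 8 had 24.1% and 23.8%. Mitoribosomal transcripts are short, with a median of 1213 bases against 3016 over the tested genes with a known length. The 1441 tested genes of up to 1213 bases had a median deviation of -0.96, -0.67 and -0.58 in replicates 4, 7 and 9, and of 0.12 in replicate 5. Over the group comparison the median log2 fold change of these 1441 short genes was -0.41, with 1202 below 0, and that of the 13178 longer genes was 0.10. Within the members, the 37 of up to 1213 bases had a median of -0.45 (3 called, 8.11%, all lower) and the 36 longer ones of -0.20 (8 called, 22.2%, 7 lower). Among all tested genes, 138 of the 1441 short ones (9.58%, 133 lower) and 1615 of the 13178 longer ones (12.3%, 421 lower) were called.

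**Figure D4:**
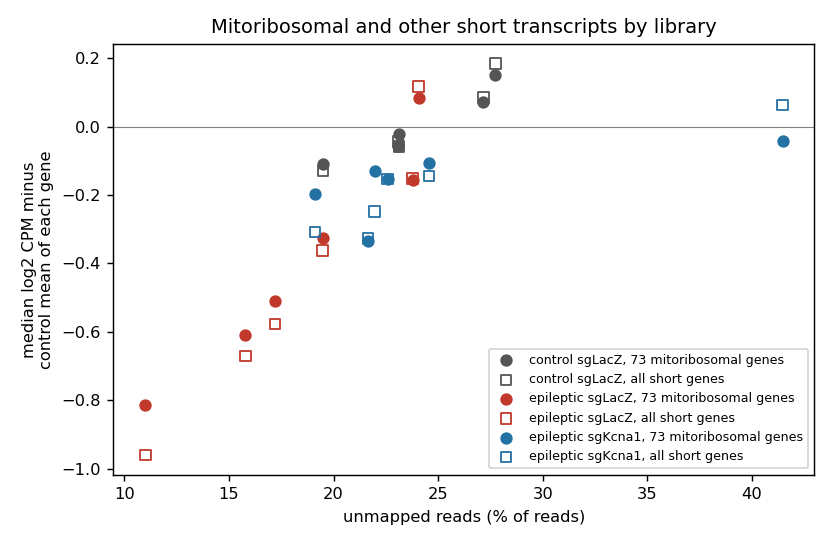
Median log2 CPM in each library, relative to each gene's control mean (vertical axis), against the percent of unmapped reads (horizontal axis), for the 73 mitoribosomal genes (filled circles) and for all 1441 tested genes with transcripts of up to 1213 bases (open squares). The 3 lowest libraries, epileptic sgLacZ replicates 4, 7 and 9, had 11.0% to 17.2% unmapped reads.

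When a smooth trend on transcript length was removed from each library, the median of the members was -0.08 and 46 of 73 were below 0. With this offset 12 members were called (11.9% of the genes with a length), 10 lower and 2 higher, and 8 of them were among the 11 above. Mrpl18 (-0.72), Mrpl47 (-0.74), Mrpl15 (-0.74), Mrps30 (-0.46), Mrps17 (-0.48), Mrpl51 (-0.53) and Mrpl50 (-0.44) were still lower and Mrpl10 (0.60) still higher. Mrpl27 (-0.09), Mrpl16 (-0.16) and Mrps33 (-0.21) no longer passed. The length is that of the longest annotated transcript, which need not be the one used in hippocampus. With the percent of unmapped reads as a covariate, 3 members were called, Mrpl18, Mrpl47 and Mrps18c (2.43% of all genes), and the median was -0.25. With both strands added, 12 were called (14.2% of all genes), 11 of them lower. The 1 higher, Mrpl48, named after its values were seen, went from -0.06 (adjusted P = 0.689) to 0.88 (adjusted P = 0.0277), and its strand counts added to 1.68 times the unstranded count. Reads of an overlapping gene can enter that sum. With sex, called from Y-linked genes against Xist, as a covariate, Mrpl18 and Mrpl47 were called (2.93% of all genes) and the median was -0.35. The groups were not balanced for sex. By that measure control replicates 13, 14 and 15 and epileptic sgLacZ replicates 8 and 9 were male, as were epileptic sgKcna1 replicates 1, 2, 3 and 10. The parts of length, unmapped share and sex in the difference were not tested further.

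**Figure D5:**
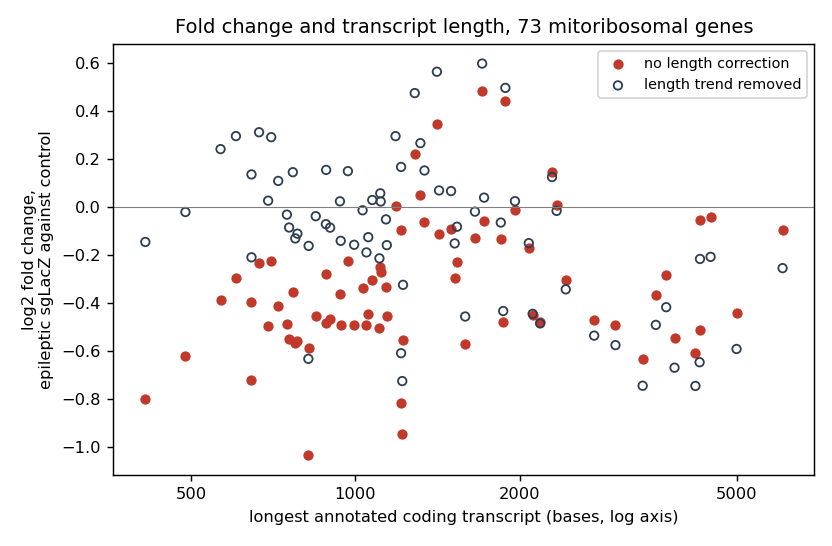
Log2 fold change of epileptic sgLacZ against control for each of the 73 genes (vertical axis) against the length of its longest annotated coding transcript (log axis), before (filled) and after (open) a length trend was removed from each library. The median moved from -0.37 to -0.08.

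Calls depended on single libraries. Without control replicate 13, 14, 16 or 23, or without epileptic sgLacZ replicate 4, 7 or 9, 0 members were called, as were 0 of all genes, by edgeR. At an unadjusted P under 0.05, 35 to 43 members were lower in these fits. DESeq2 on all libraries called 31 members (20.8% of all genes) and limma 55 (41.4%). Without control replicate 15 there were 3 calls (2.9% of all genes). Without epileptic sgLacZ replicate 5 there were 53 calls (31.3% of all genes) and without epileptic sgLacZ replicate 8 there were 21 (13.6% of all genes). Without epileptic sgKcna1 replicate 12 there were 37 (27.1% of all genes). That library is in neither group compared, but it enters the shared filter, scaling and estimate of spread. Leaving out epileptic sgLacZ replicate 6 or epileptic sgKcna1 replicate 1, 2, 3, 10 or 11 gave 5 to 7, where 5.44% to 8.7% of all genes were called. The median log2 fold change stayed between -0.49 and -0.29 throughout.

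The second comparison asked how the members differed in epileptic mice given sgKcna1 instead of sgLacZ. No member passed the threshold, 0 of 73 against 0% of all genes (edgeR, smallest adjusted P among members 0.213). The median log2 fold change was 0.19, against -0.01 over all genes. Above 0 were 66 members, where 49.3% of all genes were, and below 0 were 7, where 50.7% were. The 1441 short genes described above had a median of 0.23, with 1101 above 0 and 340 below, and the 13178 longer genes of -0.06. The median was 0.36 for 79 cytosolic ribosomal protein genes (77 above 0, 2 below). It was 0.29 for 78 nuclear genes of oxidative phosphorylation (71 above 0, 7 below). At an unadjusted P under 0.05, 7 members were higher and 0 lower, where 8.69% and 10.5% of all genes were. DESeq2 and limma called 0 members, against 0.619% and 0.0681% of all genes. The 4 with the smallest P were Mrpl16, Mrpl18, Mrps17 and Mrpl50. The log2 fold change was 0.42 (SE 0.11) for Mrpl16, 0.65 (SE 0.22) for Mrpl18, 0.37 (SE 0.13) for Mrps17 and 0.32 (SE 0.12) for Mrpl50, with adjusted P = 0.213 for each. In Mrpl16, epileptic sgKcna1 libraries ran from 33.5 through a median of 42.5 to 44.6 CPM, in Mrps17 from 66.4 through 70.6 to 97.7, and in Mrpl50 from 56.0 through 62.4 to 80.5. The epileptic groups overlapped in every member, where 0.238% of all genes were higher and 0.244% lower without overlap.

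Epileptic sgKcna1 replicate 12 had the highest epileptic sgKcna1 level of Mrpl18, Mrps17, Mrpl15, Mrpl16 and Mrpl50, and without it the median of the members was 0.16 with 0 called. Without epileptic sgLacZ replicate 5, 5 members were called, all higher, against 8.54% of all genes. These were Mrpl18 (0.89), Mrpl16 (0.50), Mrps17 (0.47), Mrpl51 (0.40) and Mrpl50 (0.40). With the unmapped share as a covariate the median was 0.05, and with the length trend removed it was 0.03, with 0 called in both. Sex as a covariate gave a median of 0.17, with 61 members above 0, 12 below and 0 called (0% of all genes).

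The third comparison set epileptic sgKcna1 mice against control mice. It shares samples with each of the others, so the values are given side by side and are not independent. Again 0 of 73 members and 0% of all genes passed the threshold (edgeR, smallest adjusted P among members 0.674). The median log2 fold change was -0.15, against 0.02 over all genes. Below 0 were 62 members, where 47.2% of all genes were, and above 0 were 11, where 52.8% were. The 1441 short genes had a median of -0.18, with 1139 below 0 and 302 above, and the 13178 longer genes of 0.04. At an unadjusted P under 0.05, 3 members were lower and 0 higher, where 2.48% and 4.29% of all genes were. DESeq2 and limma called 0 members, against 0.179% and 0.403% of all genes. The smallest P-values were those of Mrpl47 (-0.41, SE 0.15, adjusted P = 0.674), Mrps30 (-0.37, SE 0.15, adjusted P = 0.695), Mrps33 (-0.37, SE 0.16, adjusted P = 0.711) and Mrps24 (-0.32, SE 0.17, adjusted P = 0.766), none past the threshold. In Mrps33, epileptic sgKcna1 libraries ran from 46.5 through a median of 60.0 to 72.5 CPM, below every control library, and 0.573% of all genes were lower without overlap. Higher without overlap were 0 members and 0.562% of all genes. In Mrpl47 they ran from 19.3 through 23.2 to 27.0, in Mrps30 from 20.2 through 22.4 to 29.8, and in Mrps24 from 43.5 to 58.9, where control libraries had 58.1 to 78.4. Without epileptic sgKcna1 replicate 12 the median of the members was -0.21 with 0 called, against 0.0795% of all genes. With the unmapped share as a covariate, Mrps6 (-0.44) and Mrpl47 (-0.44) were called, against 1.51% of all genes.

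Of 7 genes for structural proteins of the mitochondrial ribosome with other names, 3 were lower in epileptic sgLacZ than in control mice and 0 higher. Of all genes, 3.76% were lower and 7.26% higher. Dap3, a GTP-binding small subunit protein first known from cell death, had 163 ± 15.0 CPM (SD, n = 5) in control and 120 ± 28.1 (SD, n = 6) in epileptic sgLacZ mice. Its log2 fold change was -0.44 (SE 0.13, edgeR adjusted P = 0.0455). Chchd1 had -0.72 (SE 0.22, adjusted P = 0.0477) and Mrp63 (Mrpl57) had -0.54 (SE 0.16, adjusted P = 0.0424). Aurkaip1 (-0.53), Ict1 (Mrpl58, -0.43), Ptcd3 (0.45) and Gadd45gip1 (0.14) did not pass. The strand counts of Gadd45gip1 added to 7.42 times its unstranded count. With both strands added its value was -0.41 (edgeR adjusted P = 0.0424), but that sum can hold reads of an overlapping gene. The median of the 7 was -0.44.

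Other lists of mitochondrial gene expression had medians nearer to 0, without correction for transcript length. The lists were not matched for length, and with the length trend removed the median of the members was -0.08. Of all genes, 7.26% were called higher and 3.76% lower by edgeR, and 20.8% were called by DESeq2. At an unadjusted P under 0.05 by edgeR, 18.8% were higher and 15.9% lower. The 12 translation factors had a median log2 fold change of 0.09 with 0 called (edgeR), 2 higher and 2 lower at an unadjusted P under 0.05, and 2 called by DESeq2. Of 19 mitochondrial aminoacyl-tRNA synthetases, which charge the tRNAs the ribosome uses, Iars2 (0.73, SE 0.21, adjusted P = 0.0415) and Vars2 (0.63, SE 0.18, adjusted P = 0.0404) were higher and 0 lower, with a median of 0.11. The strand counts of Iars2 and Vars2 added to 1.91 and 1.13 times their unstranded counts. With both strands added Iars2 was at 0.26 (adjusted P = 0.101) and no longer passed, and Vars2 was at 0.76 (adjusted P = 0.0323). Fars2, whose strand counts added to 7.61 times its unstranded count, went from 0.11 to -0.36 (adjusted P = 0.0410). These sums can hold reads of overlapping genes, so they need not be changes of the genes themselves. Of 19 genes for assembly of the mitochondrial ribosome 0 were called by edgeR and 1 by DESeq2, with a median of -0.07 and 1 higher and 4 lower at an unadjusted P under 0.05. Of 7 genes for synthesis and stability of mitochondrial RNA, the RNA polymerase gene Polrmt (0.50, SE 0.12, adjusted P = 0.0332) and the helicase gene Supv3l1 (0.66, SE 0.19, adjusted P = 0.0404) were higher. Tfam, which packages mitochondrial DNA and starts its transcription, was lower (-0.39, SE 0.11, adjusted P = 0.0391).

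Of the 13 messages that the mitochondrial ribosome translates, mt-Nd6 was lower (-0.82, SE 0.26, edgeR adjusted P = 0.0477), 0 were higher and the median was -0.28. The list was split, with 9 estimates below 0 and 4 above, from -0.92 for mt-Nd3 to 0.66 for mt-Atp8. At an unadjusted P under 0.05 by edgeR, 6 were lower and 2 higher, against 15.9% and 18.8% of all genes. The shares that follow are of calls at the adjusted threshold. Of all genes, 3.76% were lower and 7.26% higher. mt-Nd6, a complex I subunit encoded on the strand opposite to the other messages, had strand counts that added to 1.42 times its unstranded count. With both strands added it was at -0.63 (edgeR adjusted P = 0.0394). Unstranded reads at mt-Nd6 cannot be told apart from those of transcripts of the opposite strand. Among 9 regulators of mitochondrial biogenesis, which include Nrf1 (0.09), Gabpa (-0.12, shared reads), Yy1 (0.20) and the coactivator gene Ppargc1a (-0.25), 0 were called by edgeR or DESeq2, with 0 higher and 1 lower at an unadjusted P under 0.05. In epileptic sgKcna1 against either other group, 0 genes of these lists were called by edgeR.

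Of 79 cytosolic ribosomal protein genes, 78 had an estimate below 0 in epileptic sgLacZ against control mice, with a median of -0.54 and 6 called (7.59%, against 11% of all genes), all lower. Of 78 nuclear genes for subunits of oxidative phosphorylation, 72 were below 0, with a median of -0.54 and 12 called (15.4%), all lower. Lower calls over all genes were 3.76%. Both medians lay further below 0 than that of the mitoribosomal members, -0.37, and the difference between the lists was not tested. These medians are without correction for transcript length, and the lists were not matched for it. The 1441 short genes described above had a median of -0.41, with 1202 below 0. With the length trend removed, the median of the members was -0.08.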

How the data were processed

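The authors aligned the reads to mm10 with STAR 2.7 and deposited raw counts per gene, in unstranded, forward and reverse columns. The annotation release is not given in the sources used here. The labels name an unstranded kit and the methods stranded reads. Reverse over forward reads came to 0.994 to 0.998, so unstranded counts were used.

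Counts were analysed with edgeR 4.0.16 in R 4.3.3 (filterByExpr, TMM scaling, 1 quasi-likelihood fit over 3 groups and 17 libraries, no covariate). P-values were adjusted by Benjamini-Hochberg over 17615 genes, and the threshold was 0.05. DESeq2, which the study used, and limma were alternatives. CPM are TMM-scaled, and log2 CPM used a prior count of 2. Floors cover counting error only. Replicate pairs (40) differed beyond sampling noise. The labels give no batch and do not tie libraries to single animals, so P-values measure the spread between these samples. The fit was checked on simulated data.

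Symbols came from a gene name table, coordinates from RefSeq GRCm38.p6, and lengths from GENCODE coding transcripts of an older build, known for 83.0% of tested genes.

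Members and lists were chosen with earlier results of these data known. The genes named are, in each comparison, up to 8 called members that rose and 8 that fell most (with fewer than 4 calls, the 4 smallest P-values), the 4 highest and 4 lowest levels, the 7 other structural proteins, and called genes of the other lists.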

Additional observations from a re-analysis of the deposited data

Results flagged for a closer look

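Epileptic sgKcna1 replicate 12 lay far from the other 5 libraries of its group in 5 of the 16 measures examined there for a lone extreme library (48 over the 3 groups). Chance marks about 1 in 20, but the 5 values come from 1 library and are not independent. It had 77.2 CPM of Mrpl15, where the next library had 54.1. Its Mrpl18 level was 73.8 CPM, with 46.5 in the next library. Mrps17 was at 97.7 CPM in it and at 72.5 in the next. Kcna1 stood at 133 CPM, with 29.5 in the next library. Its share of unmapped reads was 41.5%, with 24.6% in the next library.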

How the results depend on the processing

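Between epileptic sgLacZ and control mice, the median of the members kept its sign under all 9 alternatives on the full set of libraries and all 17 that left out 1 library. It was -0.08 with the length trend, -0.25 with the unmapped covariate and -0.49 to -0.29 on leaving out 1 library. The number called did not hold. Against 11 (11% of all genes), it was 31 with DESeq2 (20.8%) and 55 with limma voom and quality weights (41.4%). It was 3 with the unmapped share (2.43%) and 2 with sex (2.93%) as a covariate. On leaving out 1 library it was 0 to 53, where 0% to 31.3% of all genes were called. Mrpl10 turned to -0.21 with both strands added. In epileptic sgKcna1 against epileptic sgLacZ mice the median was 0.0467 with the unmapped covariate, 0.0333 with the length trend and 0.11 to 0.30 on leaving out 1 library, with 0 to 5 called. Against control it was -0.0329 with the length trend, 2 were called with the unmapped covariate, and 0 on leaving out any library. The cause was not tested. No paired analysis was possible because the groups share no replicate numbers.

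For the other lists, in the order other structural proteins, translation factors, tRNA synthetases, assembly, RNA synthesis, mitochondrial messages, regulators, cytosolic ribosomal proteins and oxidative phosphorylation, the main calls were 3, 0, 2, 0, 3, 1, 0, 6 and 12. With limma they were 6, 4, 8, 6, 4, 11, 4, 75 and 71, and with DESeq2 4, 2, 4, 1, 3, 6, 0, 35 and 39. With the unmapped covariate they were 0, 0, 0, 0, 1, 0, 0, 1 and 4, and with sex 0, 0, 0, 0, 1, 0, 0, 0 and 0. With the length trend they were 2, 0, 1, 0, 3, 3, 1, 3 and 10. Fitting only the 2 groups gave 1, 1, 4, 1, 3, 3, 2, 9 and 19. Both strands added gave 4, 1, 2, 1, 3, 1, 0, 9 and 17, and no filter 2, 1, 2, 0, 2, 2, 0, 7 and 14. Leaving out 1 library gave 0 to 5, 0 to 3, 0 to 6, 0 to 5, 0 to 4, 0 to 7, 0 to 3, 0 to 73 and 0 to 65. Of all genes, 11% were called in the main fit, 41.4% with limma, 20.8% with DESeq2, 2.43% with the unmapped covariate and 2.93% with sex. The share was 11.9% with the length trend, 17.9% with only the 2 groups, 14.2% with both strands and 4.53% with no filter. It was 0% to 31.3% on leaving out 1 library. Each member had at least 29 reads a library.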
